A study of Mus musculus with 81 samples.

Results

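Mouse embryonic fibroblasts (MEF) were examined 12h after reprogramming was switched on, in newly copied chromatin (nascent), in the same chromatin left to recover (mature) and in the remaining, bulk chromatin. These 3 groups of 3 samples each are 9 of the 81 samples of the series, and each group is represented by 1 list of open-chromatin peaks called on its merged replicates. The nascent list held 20968 peaks, the mature list 62704 and the bulk list 199056. All MEF were of a Black6-129X1/SvJ background at passages 2-3, heterozygous for Col1a1::tetOP-OKSM, R26-M2rtTA and Oct4GFP. The first allele is a doxycycline-driven cassette of the factors OCT4, KLF4, SOX2 and MYC, and the second expresses the doxycycline-dependent activator from the ubiquitous Rosa26 locus. All were induced with 2 µg/mL doxycycline beside 50 µg/mL ascorbic acid and LIF. For repli-ATAC-seq the cells took up 20 µM of the thymidine analogue EdU for 10 min. Nascent samples were taken at once, and mature samples 2 h after the label began, after a chase in 10 µM thymidine. EdU-carrying fragments were pulled down through biotin, and the fragments that stayed in the supernatant gave the bulk signal. A further bulk list came from the pulldown of the mature samples (mature arm, 179656 peaks). Lists from the same cells at 6h and 36h, from 4 fractions sorted at 60h by a division-tracking dye (Q1 to Q4, with no label for which of them divided most), and from ES (embryonic stem) cells at 0h served as outside comparisons. MEF given 5 µg/mL aphidicolin 4 h after induction for 10 h, set against untreated induced MEF, served likewise. As a check of the labelled cells, all 8 fibroblast markers and 2 of 6 ES cell markers had a bulk peak within 1 kb of a gene end. The share of all protein-coding genes was 70.8%. The count was 8 of 10 for neural, 7 of 9 for endothelial and 16 of 17 for epithelial genes. It was 5 of 10 for blood, 5 of 9 for muscle and 2 of 8 for liver genes. The check is thus a weak one.

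Behind a replication fork, parental and new histones are packed onto both daughter strands, so sites that were open are covered for a time and have to be cleared again by transcription factors and remodelling enzymes. ATAC-seq marks open sites through the cuts of a transposase. A peak in nascent chromatin is therefore a site that the transposase reached within minutes of copying, and a peak in mature chromatin one that it reached within hours. In fibroblasts the open sites include CG-rich promoters of genes that every cell uses, and distal enhancers bound by factors such as AP-1 and TEAD. Reprogramming factors are known to bind many fibroblast enhancers early on, and these sites close as reprogramming proceeds.

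Promoters are shown for 8 of the genes named here. At 4 the promoter overlapped a nascent peak, and at 4 a bulk peak alone. They let the motif counts given further on be read against actual sequence. The sequences are the 200 bases before the annotated start, read in the direction of the gene (RefSeq, GRCm38.p6, the same coordinates as mm10). Capitals mark a CCAAT box, a GC box (GGGCGG) or an ETS motif (CCGGAAG) on either strand. The first 4 lay in nascent peaks: Pgk1 (phosphoglycerate kinase of glycolysis), Cenpf (a kinetochore protein), Vcp (an ATPase that extracts proteins for degradation) and Sesn2 (a stress-responsive p53 target).
Pgk1 promoter, chrX:106186900-106187099, plus strand: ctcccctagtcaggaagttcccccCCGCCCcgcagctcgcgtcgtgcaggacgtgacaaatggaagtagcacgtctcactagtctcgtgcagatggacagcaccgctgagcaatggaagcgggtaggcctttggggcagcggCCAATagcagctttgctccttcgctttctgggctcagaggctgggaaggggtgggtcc
Cenpf promoter, chr1:189688087-189688286, minus strand: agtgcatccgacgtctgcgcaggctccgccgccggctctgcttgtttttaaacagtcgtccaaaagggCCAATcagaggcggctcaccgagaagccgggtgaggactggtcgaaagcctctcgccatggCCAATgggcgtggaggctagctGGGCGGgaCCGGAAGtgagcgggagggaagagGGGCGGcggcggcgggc
Vcp promoter, chr4:43000508-43000707, minus strand: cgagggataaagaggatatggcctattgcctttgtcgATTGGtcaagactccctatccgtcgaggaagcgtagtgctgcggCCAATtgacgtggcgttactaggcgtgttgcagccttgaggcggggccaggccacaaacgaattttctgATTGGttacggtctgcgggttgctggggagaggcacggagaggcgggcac
Sesn2 promoter, chr4:132510457-132510656, minus strand: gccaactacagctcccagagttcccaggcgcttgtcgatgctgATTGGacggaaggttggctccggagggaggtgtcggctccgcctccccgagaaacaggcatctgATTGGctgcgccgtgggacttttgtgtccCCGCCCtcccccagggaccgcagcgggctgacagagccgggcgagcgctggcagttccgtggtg

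The other 4 promoters overlapped a bulk peak but no nascent or mature peak: Postn (periostin, a matrix protein), Egr2 (an immediate early zinc finger factor), Utf1 (a pluripotency-associated chromatin factor) and Sox2 (a reprogramming factor). Outside the promoter but within 1 kb of a gene end, Postn and Utf1 had a mature peak and Sox2 a nascent one. Both bulk peaks at Utf1, with 10 kb each side, overlapped a mature peak, so the bulk peak at its promoter did as well.
Postn promoter, chr3:54359067-54359266, plus strand: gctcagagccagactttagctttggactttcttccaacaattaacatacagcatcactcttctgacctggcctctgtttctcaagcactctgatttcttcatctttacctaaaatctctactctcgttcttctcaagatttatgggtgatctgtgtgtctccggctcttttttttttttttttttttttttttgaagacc
Egr2 promoter, chr10:67535299-67535498, plus strand: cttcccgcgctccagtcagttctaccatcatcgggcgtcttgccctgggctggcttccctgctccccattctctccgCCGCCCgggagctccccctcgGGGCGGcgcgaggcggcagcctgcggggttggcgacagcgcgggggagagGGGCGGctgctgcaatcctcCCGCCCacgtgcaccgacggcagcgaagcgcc
Utf1 promoter, chr7:139943656-139943855, plus strand: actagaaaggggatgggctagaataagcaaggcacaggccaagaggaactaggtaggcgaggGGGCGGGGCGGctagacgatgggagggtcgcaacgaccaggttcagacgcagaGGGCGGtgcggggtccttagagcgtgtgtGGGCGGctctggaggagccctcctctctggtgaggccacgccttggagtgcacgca
Sox2 promoter, chr3:34649795-34649994, plus strand: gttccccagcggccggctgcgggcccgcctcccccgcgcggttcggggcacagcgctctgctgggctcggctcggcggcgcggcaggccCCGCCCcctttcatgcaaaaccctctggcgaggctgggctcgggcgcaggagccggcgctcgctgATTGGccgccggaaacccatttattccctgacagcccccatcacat

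The Pgk1 promoter held 12 CG dinucleotides and its peaks scored 731 in nascent, 2381 in mature and 15654 in bulk chromatin. Cenpf had 20 CG dinucleotides, 2 CCAAT boxes, 2 GC boxes and an ETS motif, with scores of 549, 1618 and 12707 in nascent, mature and bulk. Postn had 2 CG dinucleotides and none of the motifs, and its promoter peak scored 3558 in bulk. These 8 were not sorted by CG content or GC boxes. Egr2 and Sox2 held 23 CG dinucleotides each, the most among them, and their promoter peaks were in bulk only, with scores of 2964 and 1828. Egr2 and Utf1 held 4 GC boxes each, while Vcp, with a nascent peak, held 3 CCAAT boxes and no GC box. Scores are the peak caller's own, a measure of how far a peak stands out in its library, and are compared here only within a list.

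Nearly all replicated open sites were also open in bulk, while most bulk sites were missing from the replicated fractions. Of the 20968 nascent peaks, 98.5% overlapped a bulk peak by at least 1 bp and 96.3% a mature peak. Of the 62704 mature peaks, 98.7% overlapped a bulk peak and 31.6% a nascent one. Seen from bulk, 20459 of 199056 peaks had a nascent peak (10.3%, Wilson 95% interval 10.1 to 10.4%) and 63917 a mature one (32.1%, 31.9 to 32.3%). With 1 list per group there is no spread between replicates, so intervals cover counting error only and no test was made. The depth of the libraries behind the lists is unknown. In all of these lists, fewer cells with a site open and less opening per cell cannot be told apart.

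Sorted by the fractions that held them, bulk peaks formed 4 classes of very unequal size. In nascent and mature chromatin lay 20025 (10.1%), in nascent only 434 (0.218%), in mature only 43892 (22.1%) and in neither 134705 (67.7%). The median bulk score was 5152 for peaks in both fractions, 752 for nascent only, 1739.5 for mature only and 342 for neither. Their median widths were 833, 389, 489 and 247 bp in the same order. Peaks found in both fractions were thus the strong and wide ones. Among 20459 bulk peaks with a nascent peak, the 2 scores ranked alike (Spearman rho 0.66), as did bulk and mature scores over 63917 peaks (rho 0.72). These correlations are across peaks, which share the same libraries.

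The share of bulk peaks found in nascent chromatin followed the bulk score steeply. In the weakest score decile 0.181% were found in nascent and 2.29% in mature chromatin. In the strongest, with scores of 3996 and above, the shares were 66.6% and 96.5%. In decile 5 the mature share was 14.0% while the nascent share was 0.673%, and in decile 8 they were 54.2% and 7.51%. Mature chromatin thus held sites of middling strength that nascent chromatin did not. At a given strength, sites within 1 kb of a gene end were found more often than others. In decile 9, where median scores were 3071 at gene ends and 2900 elsewhere, 61.5% of gene-end peaks (59.8 to 63.3%) and 16.1% of others (15.6 to 16.7%) had a nascent peak. For mature peaks the shares in that decile were 93.3% and 75.4%. In decile 8 a nascent peak was found at 26.6% of gene-end peaks and 5.53% of others.

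**Figure D1:**
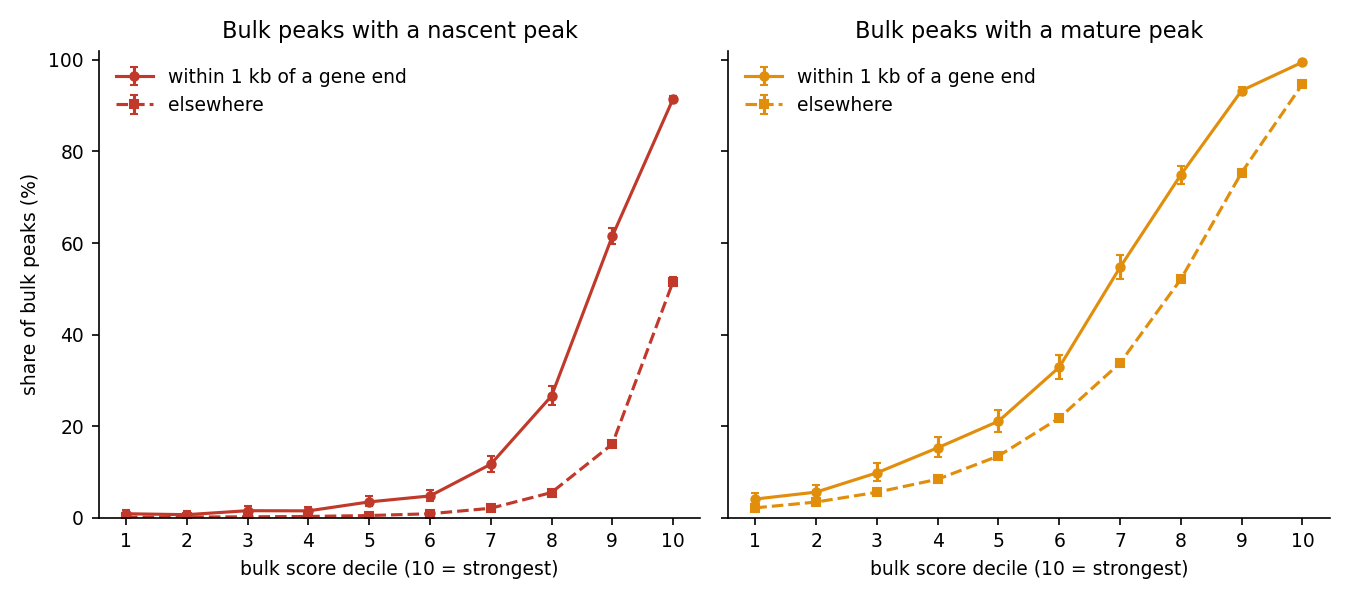
Share of 12h bulk peaks (y, percent) with a nascent peak (left, red) or a mature peak (right, orange) by bulk score decile (x), for peaks within 1 kb of a gene end (circles, solid) and elsewhere (squares, dashed). Bars are Wilson 95% intervals. Nascent shares stayed under 12% up to decile 7 and ended at 91.5% at gene ends and 51.6% elsewhere, while mature shares ended at 99.5% and 94.7%.

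Width added to score. Over all bulk peaks a nascent peak was found at 0.227% of the narrowest quartile (up to 203 bp) and 36.0% of the widest (505 bp or more). Within the strongest score decile, nascent shares by width quartile were 30.8%, 53.2%, 70.1% and 86.3% for peaks away from gene ends. At gene ends they were 54.6%, 80.0%, 92.5% and 97.3%. Gene-end peaks exceeded the others in every width quartile of that decile, so the difference remained at like widths. Gene-end peaks of the narrowest quartile, with a median width of 481 bp, were near the share of other peaks of the next quartile (634 bp). Within each quartile the median scores of gene-end peaks were also higher, 6306.5 against 5647 in the second.

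Gene-end peaks, within 1 kb of either end, made up 45.5% of the nascent list, 20.9% of the mature list and 10.2% of the bulk list. With every list cut to its 20968 highest-scoring peaks the shares were 45.5%, 37.8% and 36.8%, so the gap between fractions narrowed when lists of equal length were compared. Peaks over 50 kb from any gene end made up 14.2%, 24.9% and 35.0% of the same lists. Distance from genes ordered the strongest peaks further. Of top-decile bulk peaks that covered a gene end, 93.2% had a nascent peak. The share was 78.8% up to 1 kb away, 60.8% at 1 to 10 kb, 53.4% at 10 to 50 kb, 52.2% at 50 to 100 kb and 35.7% beyond 100 kb. Mature shares over the same bands ran 99.7%, 98.4%, 96.9%, 96.8%, 95.5% and 87.3%. The gap between the fractions was thus widest beyond 100 kb from a gene end. Gene content was counted as the protein-coding gene models whose midpoint lay within 250 kb of the peak's centre. A long gene nearby can thus be missed. Among top-decile peaks over 1 kb from a gene end, those with no such midpoint had a nascent peak in 27.9% of cases (25.2 to 30.7%). With 1 to 4 genes it was 48.8%, with 5 to 9 genes 56.2%, with 10 to 19 genes 61.1% and with 20 or more 68.2% (64.0 to 72.2%). Median bulk scores of these groups lay between 5265 and 5697.5, and median widths between 566 and 678 bp, rising with gene content.

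**Figure D2:**
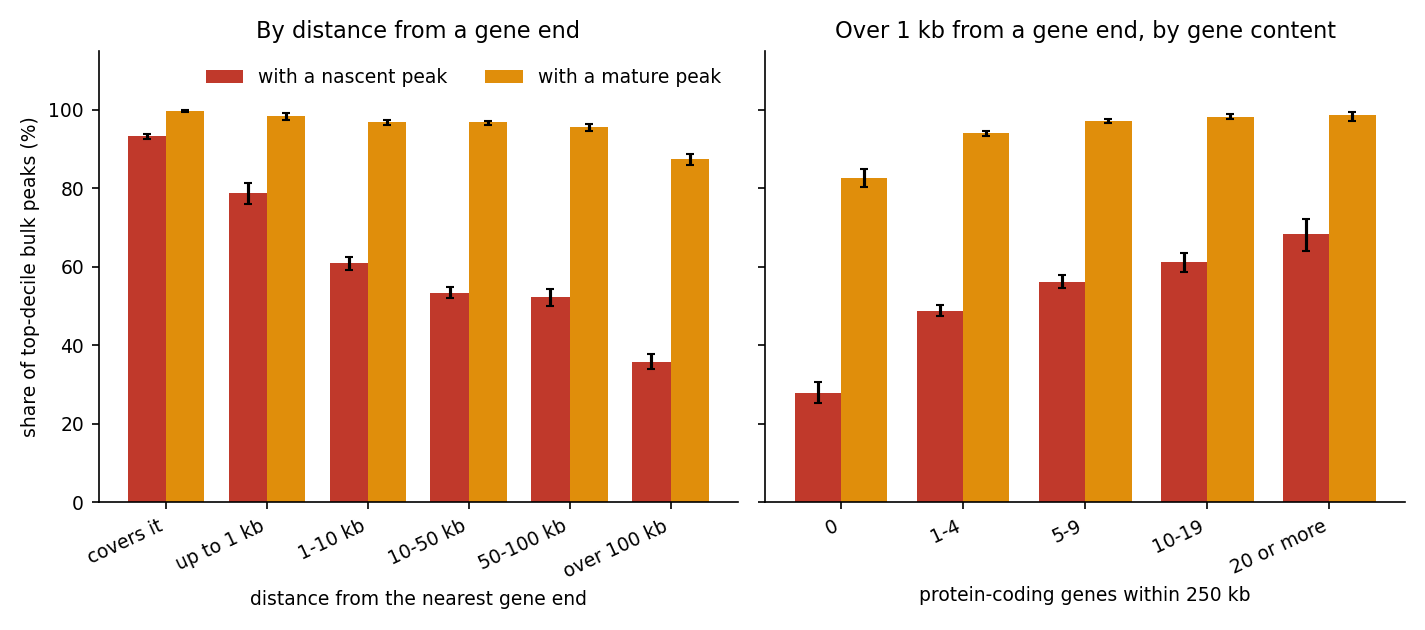
Share of the strongest decile of 12h bulk peaks (y, percent) with a nascent (red) or mature (orange) peak, by distance from the nearest gene end (left) and, over 1 kb from gene ends, by the number of protein-coding genes within 250 kb, counted by their midpoints (right). Bars show Wilson 95% intervals, and nascent shares step down from 93.2% to 35.7% with distance and up from 27.9% to 68.2% with gene content.

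By chromosome, nascent shares of bulk peaks ran from 7.56% on X and 8.48% on chromosome 14 to 13.0% on chromosome 7 and 13.1% on chromosome 11. The X chromosome also had the lowest median bulk score, 464 against 604 on the autosomes. Among top-decile peaks the shares were 67.3% on X (61.3 to 72.8%) and 66.6% on the autosomes (65.9 to 67.2%), with overlapping intervals.

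Single sites show both ends of this range. The highest-scoring distal bulk peak with a nascent peak lay on chromosome 3 (5860336 to 5860788), 281740 bp from Pex2 with no gene within 250 kb, and scored 1515 in nascent, 4080 in mature and 37451 in bulk. The next lay inside Gphn on chromosome 12 (78350867 to 78351177; 1298, 2790 and 32396) and inside Jarid2 on chromosome 13 (44869564 to 44870023; 779, 3829 and 30803). In that order these sites were 453, 311 and 460 bp wide, below the median of 616.5 bp for top-decile distal bulk peaks. Whether reads at such sites are shared with other places in the genome was not tested. All 10 of the strongest distal peaks with a nascent peak were also in the 6h and 36h bulk lists and in the ES cell list. Of all distal bulk peaks in nascent and mature chromatin, 99.7%, 99.9% and 58.4% were in those lists. The 10 strongest bulk peaks with a mature but no nascent peak scored 11175 to 13110 in bulk and 271 to 1287 in mature. Of these, 9 were distal, among them sites inside Akap6 (chromosome 12, 52950547 to 52951191), Eps8 (chromosome 6, 137565701 to 137566331) and Tnik (chromosome 3, 28485578 to 28486281). The tenth covered an end of Tmem160 (chromosome 7, 16452637 to 16453745), with a mature score of 1287. All 10 were in the 6h and 36h bulk lists, and 7 of 10 were absent from the ES cell list. Of all mature-only bulk peaks, 95.2%, 97.0% and 39.4% were in the 6h, 36h and ES cell lists.

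Among the 10 strongest bulk peaks found in neither fraction, 3 stood apart. They lay near Tra2a (chromosome 6, 49236451 to 49236584), Il31ra (chromosome 13, 112578179 to 112578308) and Fcgr3 (chromosome 1, 171065288 to 171065423), were 130 to 136 bp wide and scored 8306 to 10180. None of the 3 was in the mature-arm bulk list at 12h, nor in the bulk lists at 6h or 36h or of ES cells. Each overlapped a peak in at least 1 of the remaining MEF lists, from 14h, 60h, the mature arm at 6h and 36h or the replicated fractions at those times. Over all bulk peaks, those found in no other MEF list made up 16.2% of the weakest score decile, 0.131% of decile 6 and 0 of 19906 peaks of the strongest, which allows up to 0.0193%. Their median width was between 127 and 156 bp in every decile that held any. The other 7 of the 10, such as one 117497 bp from C1d on chromosome 11 (17386673 to 17387219), were in both 12h bulk lists and in the 6h and 36h lists.

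At the level of genes, 10217 of 21887 protein-coding genes (46.7%) had a nascent peak within 1 kb of either end, 12860 (58.8%) a mature peak and 15488 (70.8%) a bulk peak. A mature but no nascent peak was found at 2702 genes, bulk alone at 2600, and no peak in any of the 3 lists at 6368. The nascent share of genes with a bulk gene-end peak depended on that peak's score. It was 0.839% in the weakest decile of genes, 63.2% in decile 4 and 98.6% in decile 10. Counts of gene lists are read against these shares.

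Genes of growth and division mostly had nascent peaks. Of 25 ribosomal protein genes 23 had a nascent gene-end peak, of 20 ubiquitous genes 18, of 28 S phase genes 25 and of 17 mitosis genes 17, against 46.7% of all genes. Among S phase genes the highest nascent score was at Gins2, a subunit of the replicative helicase complex, with 587 in nascent, 1866 in mature and 12365 in bulk. Pole, the catalytic subunit of the leading-strand polymerase, had 429, 1000 and 8777, and Rrm2, of the nucleotide-making ribonucleotide reductase, 409, 746 and 5387. Lig1, the ligase that seals Okazaki fragments, had a bulk gene-end peak of 7881 with neither a nascent nor a mature peak there. Mitosis genes included Cdc25c, the phosphatase that activates CDK1 (507, 1574 and 10459), and Ccna2, cyclin A2 (466, 1696 and 14925). Among ribosomal genes, Rps9 (194 in mature, 4704 in bulk) and Rps2 (264 and 329) had no nascent peak. Median bulk gene-end scores were 5607 to 7525.5 in these 4 lists, above the 4452 of all genes with a bulk peak, and their part in the counts was not tested.

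Among factors that drive immediate responses and fibroblast growth, AP-1 and immediate early genes had nascent peaks at 15 of 18 and YAP and TEAD genes at 13 of 13. Junb, an AP-1 subunit, scored 473 in nascent, 604 in mature and 6619 in bulk, and Egr1, an immediate early zinc finger factor, 377, 905 and 4838. Tead4, the DNA-binding partner of YAP, scored 481, 908 and 7549, and Wwtr1, which encodes TAZ, 375, 798 and 7469. Ccn2, a secreted YAP target, scored 283, 409 and 4846. Outside the nascent list were Myc (157 in mature and 1945 in bulk), Egr2 and Batf, both with bulk gene-end peaks only, although the Egr2 locus with 10 kb each side held 3 nascent peaks. For p53 target genes the count was 11 of 14. Cdkn1a, the cell cycle inhibitor p21, had no gene-end peak in any of the 3 lists, but its locus with 10 kb each side held 3 nascent, 2 mature and 4 bulk peaks.

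Of 25 fibroblast and matrix genes 18 had a nascent peak (72%, Wilson interval 52.4 to 85.7%), and of 22 mesenchymal transcription factor genes 14 (63.6%, 43.0 to 80.3%), beside 46.7% of all genes. S100a4, a calcium-binding protein of motile cells, scored 430, 1182 and 6097 in nascent, mature and bulk. Col6a2, a collagen VI chain, scored 362, 776 and 4638. Col1a1 and Col1a2, the collagen I chains, had nascent scores of 122 and 67, mature 223 and 300, and bulk 1329 and 2739. Dcn, the matrix proteoglycan decorin, had 307 in mature and 6313 in bulk with no nascent peak. Pdgfra, Lum and Fap had bulk peaks only. Snai1, a repressor of epithelial genes, had 255, 1035 and 8782, and Twist1, a mesenchymal basic helix-loop-helix factor, 144, 145 and 4390. Prrx1, a limb mesenchyme homeobox factor, had 80 in mature and 346 in bulk, and Runx1 bulk alone (475). Of the 8 fibroblast markers used to check the cells, 6 had a nascent, 7 a mature and 8 a bulk gene-end peak.

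The loci of these factors hold many distal peaks, and few of them were nascent. Over genes with 10 kb each side, 15.4% of bulk peaks had a nascent peak for all genes. The share was 7.92% (48 of 606) at mesenchymal transcription factors, 13.2% (51 of 385) at fibroblast and matrix genes, 35.4% (45 of 127) at AP-1 and immediate early genes and 34.9% (44 of 126) at ribosomal genes. Median gene lengths differ, with 58.3 kb for the mesenchymal factors and 3.81 kb for the ribosomal genes, so the share of peaks near a gene end differs as well. Ebf1 held 3 nascent, 24 mature and 79 bulk peaks, and Runx1 4, 23 and 50. Loci with most nascent peaks were Aopep (21 nascent, 39 mature and 91 bulk), Pakap (15, 40 and 107), Lpp (13, 35 and 118), Denn2b (13, 21 and 51) and Ahnak (12, 18 and 31). Among the loci with most bulk peaks and no nascent peak were Rbfox1 (9 mature and 79 bulk), Opcml (8 and 70), Elmo1 (13 and 61) and Pcdh15 (3 and 61). Rbfox1, Opcml and Pcdh15 are large genes best known from neurons and sensory cells.

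For genes of other cell states the counts are again read against 46.7% of all genes. Nascent gene-end peaks were found at 3 of 17 epithelial, 6 of 22 pluripotency, 1 of 13 germ layer, 15 of 39 Hox, 1 of 10 neural, 0 of 9 muscle, 2 of 10 blood and macrophage, 3 of 9 endothelial and 1 of 8 liver genes. The Wilson intervals of the epithelial (6.19 to 41.0%), germ layer (1.37 to 33.3%), neural (1.79 to 40.4%) and muscle (0 to 29.9%) shares lay below the share of all genes. Those of the Hox (24.9 to 54.1%), pluripotency (13.2 to 48.2%), endothelial (12.1 to 64.6%), blood (5.67 to 51.0%) and liver (2.24 to 47.1%) shares included it. The 3 epithelial genes were Tjp3, a tight junction protein (535, 2262 and 9413), Esrp1, a splicing regulator (73, 149 and 1841), and Dsp, desmoplakin (49, 70 and 748). Median bulk gene-end scores were 728.5 for the epithelial and 528 for the germ layer list. Within the Hox clusters, Hoxa9 (315, 471 and 3332) and Hoxa10 (139, 529 and 4913) had nascent peaks, and Hoxc6 (2297) bulk only. Spi1, a blood lineage factor, had a gene-end peak of 118, 562 and 6285, and Cd68 of 55, 285 and 2965. Ptprc and the other blood markers had no nascent peak at a gene end.

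**Figure D3:**
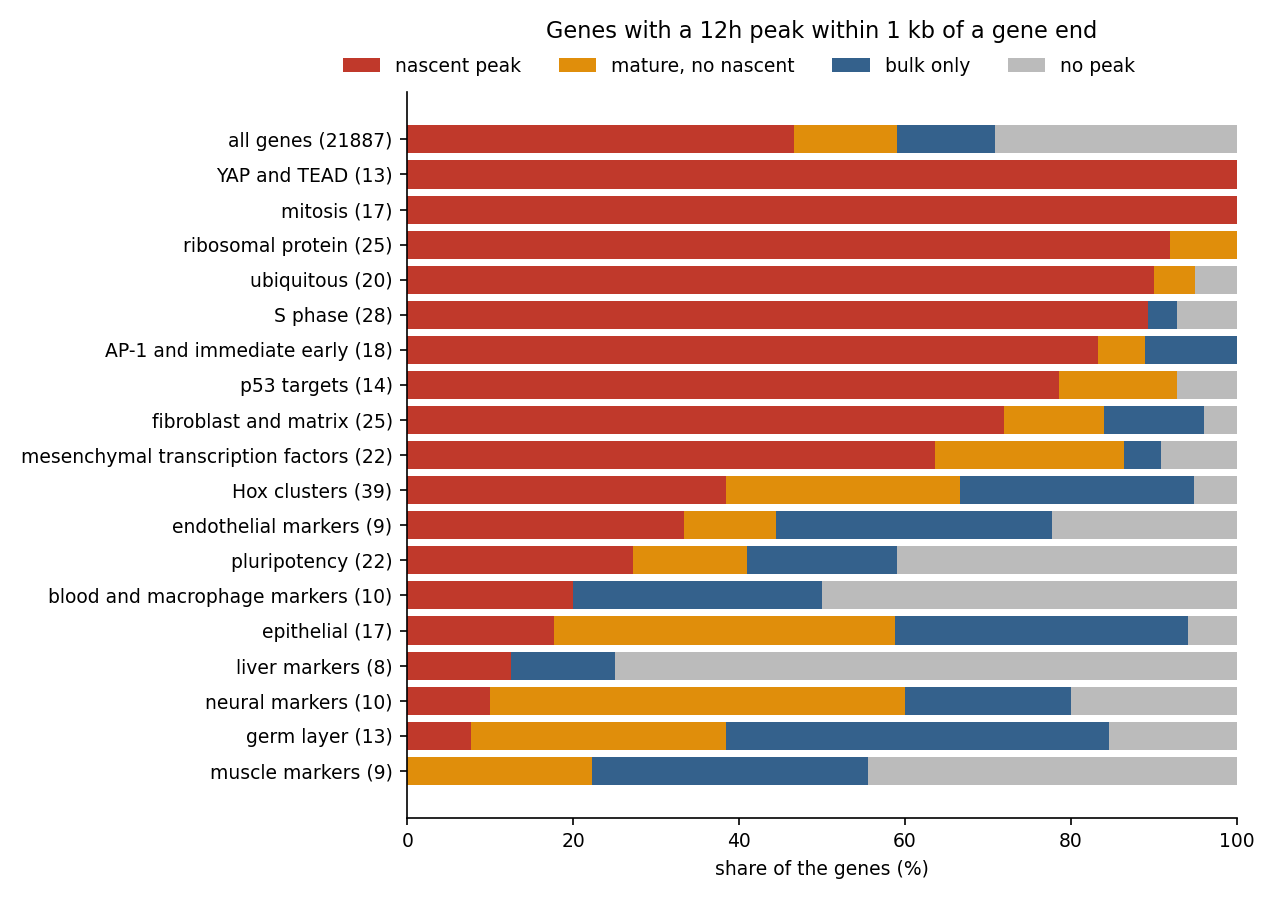
Share of genes (x, percent) in each list with a nascent gene-end peak (red), a mature but no nascent peak (orange), a bulk peak only (blue) or no peak (grey), with the number of genes in brackets. All genes are on top. YAP and TEAD and mitosis genes were nascent throughout, and muscle markers had no nascent gene-end peak.

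The reprogramming factor genes need care, since their coding exons are shared with the induced cassette and reads from both cannot be told apart. Sox2 had a nascent peak of 259 inside the gene (chromosome 3, 34650480 to 34651276), mature 409 and bulk 2485, while the peak at its start (34649680 to 34650119) was in bulk only. Klf4 had 3 nascent peaks of 71 to 200, of which the one at its upstream end (chromosome 4, 55532465 to 55533026) scored 99. Myc had 1 nascent peak inside the gene (95) and none at its start, where mature chromatin had 157. At Pou5f1, the gene of OCT4, the bulk peak at the upstream end (chromosome 17, 35506101 to 35506485) scored 4778 and the mature one 500, with no nascent peak. Of pluripotency genes outside the cassette, Klf2 scored 254, 1077 and 11330, Klf5 223, 596 and 9472, Tbx3 151, 872 and 10926, and Tfcp2l1 122, 87 and 2047 in nascent, mature and bulk.

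Promoter sequence differed by class over the genome. The promoter table gave 32817 promoters of 300 bases (250 before and 50 after the start), and 17465 protein-coding genes matched one. A nascent peak overlapped 10429 promoters, a mature but no nascent peak 2966, bulk alone 3327 and none of the lists 16095. Median numbers of CG dinucleotides were 24, 13, 8 and 3 in that order. A GC box stood in 73.0% of nascent, 49.1% of mature, 35.2% of bulk-only and 9.02% of remaining promoters, against 35.6% of all. An ETS motif stood in 20.7%, 8.26%, 3.64% and 2.37% (8.86% of all), and a CRE (TGACGTCA) in 3.63%, 2.09%, 1.35% and 0.634% (1.79% of all). The NRF1 motif GCATGCGC stood in 6.09%, 3.00%, 1.47% and 0.721% (2.71% of all), and the YY1 motif AAGATGGC in 5.13%, 1.69%, 0.842% and 1.78% (2.74% of all). In the other direction went the AP-1 motif TGANTCA, in 4.02% of nascent, 9.51% of mature and 12.9% of bulk-only promoters (8.91% with no peak, 7.81% of all). TATAAA stood in 5.08%, 9.98%, 11% and 20.4% (13.6% of all). CCAAT (38.6%, 33.3%, 32.6% and 38.4%, with 37.4% of all) and the octamer ATGCAAAT (1.30%, 2.06%, 1.65% and 1.98%, with 1.74% of all) neither rose nor fell steadily over the classes. Their intervals for nascent and mature promoters were still apart. They were 37.6 to 39.5% and 31.7 to 35.1% for CCAAT, and 1.10 to 1.54% and 1.60 to 2.63% for the octamer. Both strands were searched, and a motif of fewer letters is found more often by its length alone.

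Nascent promoters were also the strong ones, with a median bulk score of 6054 against 2594 for mature and 622 for bulk-only promoters. Among promoters in the top quartile of bulk scores (above 6972), median CG counts were 25 for 3975 nascent promoters and 10 for 148 with a mature but no nascent peak. The GC box stood in 76.3% (74.9 to 77.6%) and 41.9% (34.2 to 49.9%) of them, and the ETS motif in 23.9% and 10.8% (6.76 to 16.8%). The AP-1 motif, at 4% and 8.11% (4.70 to 13.6%), was less clearly apart. The CRE did not keep its difference, at 3.87% of nascent and 4.73% (2.31 to 9.44%) of mature promoters of that quartile. A match is a string of letters and not a bound site.

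Bulk sites with a mature peak had higher shares in later lists than equally strong sites without one, a difference with no replicate check. Each of the 43892 mature-only bulk peaks was set against peaks in neither fraction from the same score percentile. In the 36h bulk list 97.0% of mature-only peaks and 80.7% of score-matched peaks in neither were found, 16.3 points apart. In the earlier 6h bulk list the shares were 95.2% and 94.1%, 1.07 points apart. In all 3 untreated lists at 14h they were 86.0% and 68.9%, and in the 60h fraction Q1 60.8% and 31.3%. In Q2 they were 57.7% and 28.7%, in Q3 64.6% and 34.5%, and in Q4 53.1% and 32.6%. In score decile 5, with median scores of 501 and 491, 92.0% of mature-only peaks and 52.3% of peaks in neither were in the 36h list, and 85.1% and 82.9% were in the 6h list. Mature-only peaks were wider at equal score. Matched on width as well, the 36h difference was 13.0 points and the 6h difference -0.281 points.

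The size of the 36h difference depended on the bulk list taken. With the mature-arm bulk lists as the 12h base and at 36h it was 6.38 points, and at 6h -0.910 points. With the 12h bulk list kept as the base and the mature-arm list at 36h it was 13.2 points. Over bulk peaks found in both 12h bulk lists it was 15.1 points at 36h and 0.0290 points at 6h. Cut to the length of the 36h list, the 6h list gave -0.574 points. The 36h difference was positive in each of these settings. In the mature-arm bulk list of 12h itself the shares were 99.9% and 96.6%.

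A second step separated sites by nascent detection. Among bulk peaks over 1 kb from a gene end, 10602 were in nascent and mature chromatin, and these were set against mature-only peaks of the same scores. Both kinds were nearly complete in the 36h list, at 99.9% and 99.6%. In Q1 the shares were 92.2% and 74.3%, in Q2 91.2% and 72.7%, in Q3 94.3% and 79.6%, and in Q4 91.8% and 81.6%. In the ES cell list they were 58.4% and 31.0%. Mature-only peaks were likewise found in the ES cell list more often than score-matched peaks in neither, at 39.4% and 23.3%. The lists at 60h and of ES cells are shorter or from other cells, and widths matched as well left 18.6 points in Q1 and 22.3 points in ES cells between nascent and mature-only peaks.

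**Figure D4:**
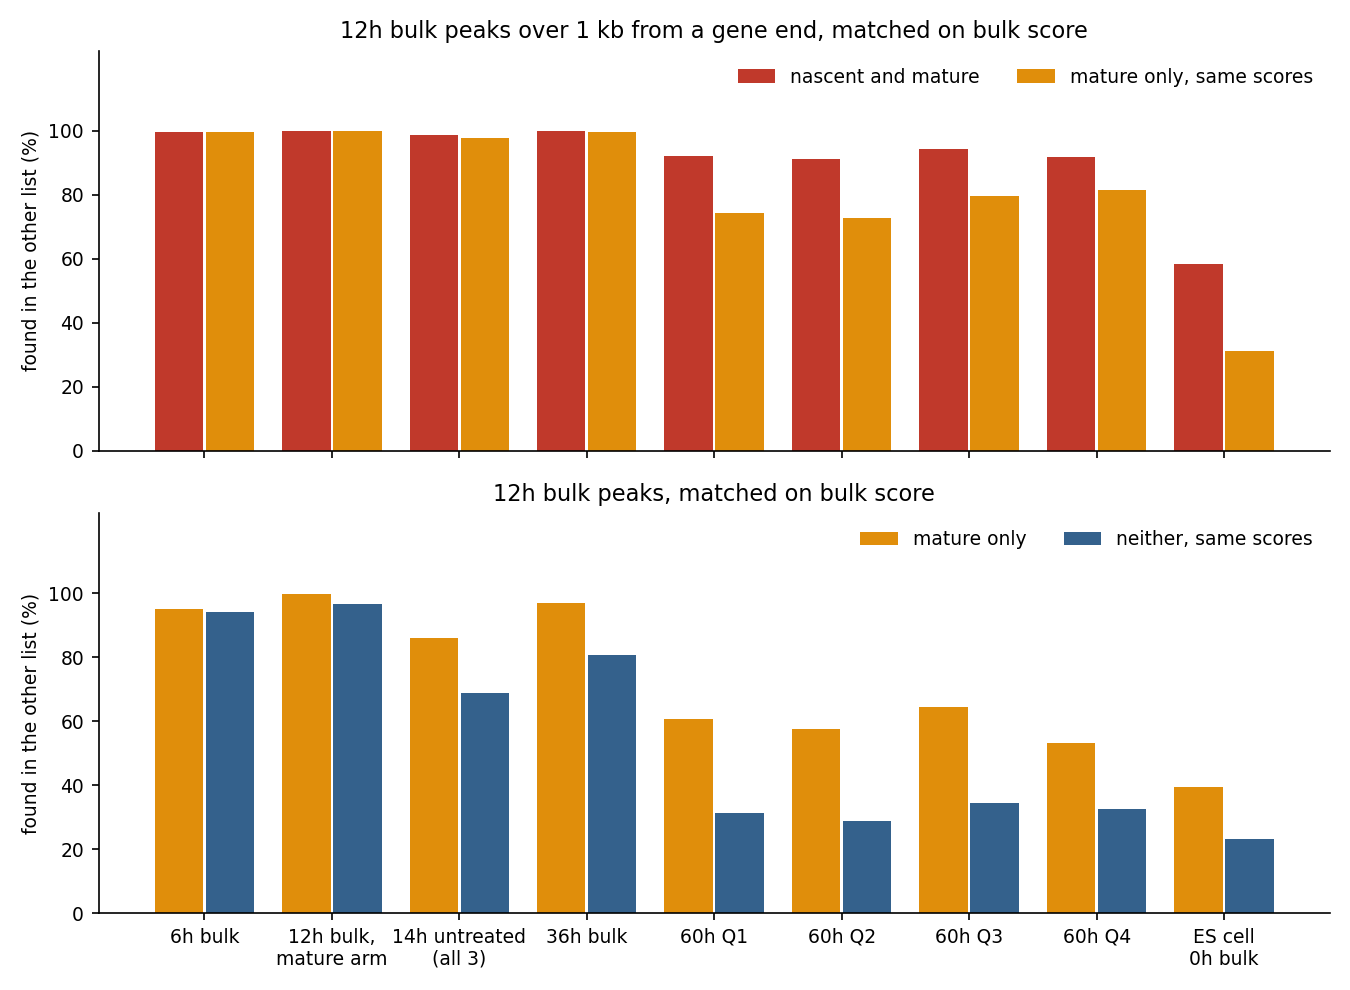
Share of 12h bulk peaks (y, percent) found in other bulk or ATAC lists (x), for peaks in nascent and mature chromatin against mature-only peaks of the same scores, over 1 kb from gene ends (top), and for mature-only peaks against score-matched peaks in neither (bottom). In the lower panel the bars are close at 6h, near the top of the scale (95.2% and 94.1%), and apart at 36h (97.0% and 80.7%) and in all 4 fractions of 60h.

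The fractions at 6h and 36h place the 12h values in time. Among the strongest decile of bulk peaks a nascent peak was found at 15.5% at 6h, 66.6% at 12h and 67.2% at 36h, and a mature peak at 55.4%, 96.5% and 99.4%. Away from gene ends the nascent shares were 9.18%, 51.6% and 46.4%, and at gene ends 29.6%, 91.5% and 93.8%. The nascent lists held 3222, 20968 and 15200 peaks at 6h, 12h and 36h. The part of list length in these shares was not tested. Of the 12h nascent peaks, 13.4% were in the 6h and 61.7% in the 36h nascent list, while 87.4% of 6h and 85.2% of 36h nascent peaks were in the 12h list.

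Sites new at 12h were rarely found in the replicated fractions. Of 23063 bulk peaks that overlapped neither 6h bulk list, 0.299% had a nascent and 3.11% a mature peak. Older sites of the same scores had 0.279% and 5.79%. New sites were weak, with a median score of 149 against 750 for the rest. Against sites of equal score, new sites were thus level in nascent chromatin and lower in mature chromatin. The new sites include the bulk peaks found in no other MEF list, which by definition have neither a nascent nor a mature peak. Their part in the lower mature share was not tested.

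A small group of nascent peaks had no bulk peak at all. There were 314 (1.5% of the nascent list), with a median score of 50 and a median width of 242 bp, and 285 of them overlapped neither 12h bulk list. Of the 314, 143 (45.5%, 40.1 to 51.1%) overlapped a bulk peak of ES cells at 0h, and away from gene ends 112 of 271 (41.3%). At 6h the same share was 6 of 172 (3.49%, 1.61 to 7.40%), and at 36h 128 of 244 (52.5%). Of all 12h nascent peaks 76.2% overlapped the ES cell list (58.0% away from gene ends), and of all 12h bulk peaks 32.3% (27.2%). Nascent peaks without a bulk peak thus lay between the nascent list and the bulk list in this share. Of 817 mature peaks with no bulk peak, 19.8% did. The 434 bulk peaks with a nascent but no mature peak overlapped it in 78.3% of cases, close to the 77.2% of bulk peaks with both. In the lowest score decile, 25 of 31 such peaks (80.6%, 63.7 to 90.8%) did, against 27.1% of mature-only peaks and 20.6% of peaks in neither. At 12h and 36h about as many of the nascent peaks without a bulk peak lay at ES cell sites as not, and at 6h few did.

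The strongest of the 314 lay 52623 bp from Rhou on chromosome 8 (123599741 to 123601306), 1566 bp wide with a nascent score of 270. The next was 124029 bp from Fgf14 on chromosome 14 (124801715 to 124801967, 234), and another lay inside Pde4b on chromosome 4 (102494338 to 102494611, 184). At loci of the 6 ES cell markers, with 10 kb each side, nascent peaks at 12h were found at 3. Nanog, the pluripotency homeobox factor, had 1 nascent (chromosome 6, 122702603 to 122703091, 298), 1 mature (726) and 2 bulk peaks, and the nascent peak overlapped the stronger bulk peak (7934). Dppa5a had 1 nascent peak of 61, no mature peak and a bulk peak of 1524 at the same place. Tfcp2l1, a naive pluripotency factor, had 1 nascent peak of 122, 3 mature and 6 bulk peaks. Esrrb, Zfp42 and Dppa4 had no nascent peak, with 12, 1 and 2 bulk peaks. None of the 6 loci had a nascent peak at 6h, and Nanog and Tfcp2l1 had 1 each at 36h.

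The aphidicolin experiment gives a replicated measure that did not enter the 12h classes. Aphidicolin blocks the replicative DNA polymerases. Raw counts were deposited for 139000 regions in 3 treated and 3 untreated libraries, harvested 14 h after induction. Totals were 55158844 to 78677381 counts with aphidicolin and 41183769 to 49440524 untreated. The labels do not say whether replicates were separate cultures, so p-values measure the spread between these libraries, which may be technical. Of the regions, 20643 overlapped a 12h nascent peak, 42645 a mature but no nascent peak, 67222 bulk alone and 8490 none of the 3.

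Regions of the nascent class held a smaller part of the counts after aphidicolin. They took 47.1%, 45.4% and 45.6% of the counts in the aphidicolin libraries, against 53%, 51.7% and 50.1% in the untreated ones (46.0 ± 0.956% and 51.6 ± 1.45%, SD, n = 3 each). The groups did not overlap, and the two-sided exact permutation test gave p = 0.1, the smallest that 3 against 3 allows. Mature-only regions took 31.4 ± 0.462% with aphidicolin and 29.7 ± 0.943% untreated, bulk-only regions 21.1 ± 0.470% and 17.5 ± 0.456%, and regions with no 12h peak 1.48 ± 0.0322% and 1.13 ± 0.0583% (SD, n = 3 each, exact permutation p = 0.1 for each). In these 3 classes every aphidicolin library was above every untreated one. Of the 8490 regions with no 12h peak, 75.1% entered the table through the aphidicolin lists alone, so their choice favoured a higher level with aphidicolin, and over those with a peak in all 6 lists their median log2 fold change was 0.02.

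Of 138996 regions tested with edgeR's quasi-likelihood test (Benjamini-Hochberg adjusted p under 0.05), 25061 (18.0%) were higher and 24874 (17.9%) lower after aphidicolin. In the nascent class 143 of 20643 were higher and 12147 (58.8%) lower, with a median log2 fold change of -0.28. In the mature, no nascent class 5019 of 42645 were higher and 7598 (17.8%) lower, with a median of -0.04. In the bulk-only class 16780 of 67221 (25%) were higher and 4553 lower, with a median of 0.16. Without the aphidicolin library numbered 2 the nascent class had 60 higher and 7863 lower, the mature class 2552 and 4432 and the bulk-only class 10459 and 2523. Without the untreated library numbered 3 the nascent class had 393 higher and 13771 lower. Nascent regions at gene ends fell in 67.3% of cases and those elsewhere in 51.5%, with medians of -0.31 and -0.25. Of the nascent class 99.0% had a peak in all 6 sample lists, against 59.6% of the bulk-only class, of which 38.6% entered the table through the aphidicolin lists alone. When regions lacking a peak in any of the 6 lists were left out, the nascent class had 282 higher and 8811 lower of 20441, and the mature class had a median of 0.02, the opposite sign.

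Scaling and strength bear on these counts. When libraries were scaled by their totals instead of by TMM (trimmed mean of M values), the median of all regions was 0.18 instead of 0.02, and 79.2% of called regions were higher, against 50.2%. The nascent class then had 706 higher and 6346 lower (median -0.13) and the mature class a median of 0.12. This change of scaling moves all regions by about the same amount, so each class keeps its difference from the median of all regions (-0.30 for the nascent class) by construction. The nascent class is also the strongest, with a median of 4.34 log2 CPM (counts scaled to library size) against 2.53 for mature and 1.20 for bulk only. With offsets that follow strength it had 1039 higher and 2528 lower and a median of -0.04. At equal strength the classes still differed in part. In strength decile 6 the share lower was 24.9% of 442 nascent, 11.8% of 5499 mature and 9.46% of 7731 bulk-only regions, and with strength-dependent offsets 27.4%, 13.2% and 11.1%. The share higher in that decile was 1.36%, 14.3% and 24.8%, and with those offsets 0.679%, 8.67% and 17.2%. In decile 10 the share lower was 75.9%, 49.2% and 39.1%, but with those offsets 9.23%, 8.86% and 4.35%. The share higher there was 0.0338%, 1.39% and 2.17%, and with those offsets 6.18%, 17.2% and 34.8%. Only 46 bulk-only regions lay in that decile.

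**Figure D5:**
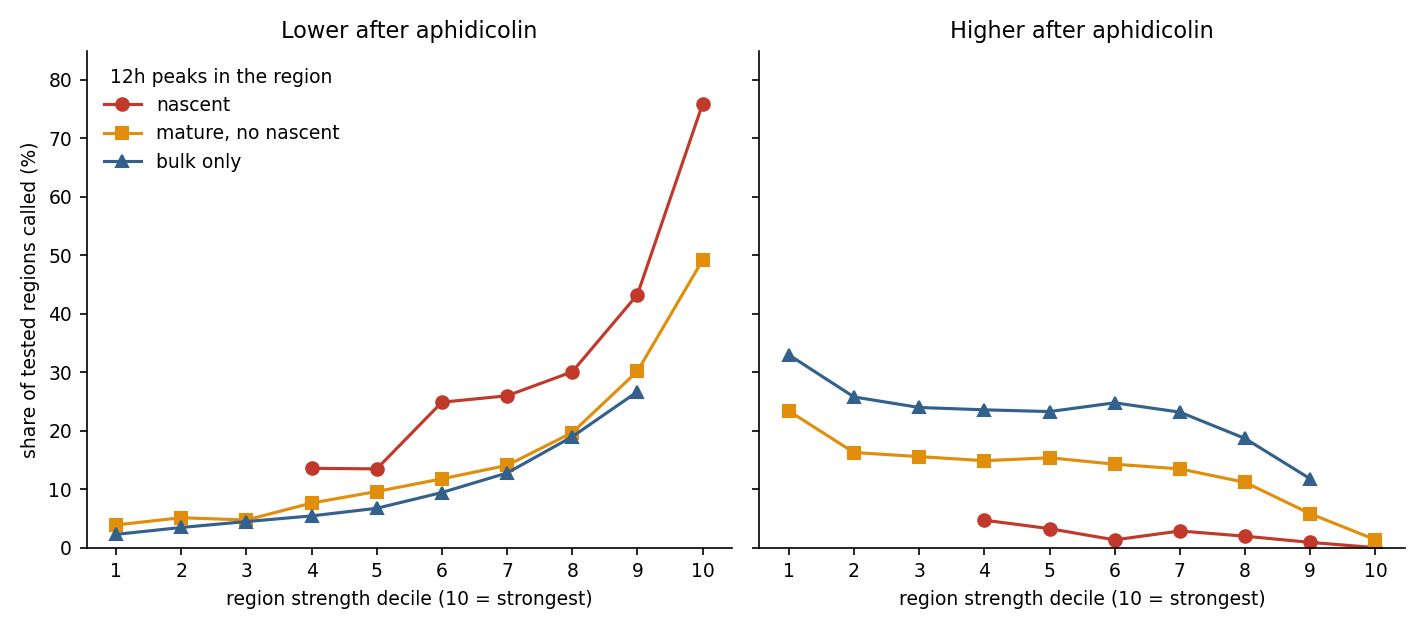
Share of tested regions (y, percent) called lower (left) or higher (right) after aphidicolin by region strength decile (x), for regions with a 12h nascent peak (red circles), a mature but no nascent peak (orange squares) or a bulk peak only (blue triangles). Points are shown for classes with at least 100 tested regions. In decile 8, 30.1% of nascent, 19.7% of mature and 19% of bulk-only regions were lower, and 1.99%, 11.2% and 18.7% higher.

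Single nascent regions are named from those called, above the median level of all regions and without overlap between the groups, of which 11163 were lower after aphidicolin and far fewer higher. The 5 largest losses among them lay beside 4 genes. A region 363 bp from an end of Actb, cytoplasmic actin (chromosome 5, 142902029 to 142902752), had 8.0, 9.17 and 10.1 CPM with aphidicolin, against 26.4, 28.8 and 32.6 CPM untreated. Its log2 fold change was -1.68 ± 0.10 (SE; edgeR adjusted p = 2.46e-07). A pair of regions beside Actg1, the other cytoplasmic actin, changed by -1.44 and -1.23. Eef1a1, the translation elongation factor (chromosome 9, 78476011 to 78476938), had 18.4, 17.4 and 17.2 CPM with aphidicolin, against 34.1, 36.7 and 42.6 untreated (-1.10). At Rpl3 (chromosome 15, 80074818 to 80077060) the values were 95.6, 93.9 and 86.9 with aphidicolin, against 162, 188 and 186 untreated (-0.96). Each stayed lower under library totals (-0.80 to -1.53) and strength-dependent offsets (-0.40 to -1.46). The Actb region and the Actg1 region that changed by -1.44 lacked a peak in at least 1 of the 6 sample lists. Both thus entered the table through the lists of 1 group alone, which bears on their size of change. The remaining regions had a peak in all 6. A nascent region over the other end of Rpl3 (80083037 to 80083833) changed by -0.28, by -0.13 under library totals and by -0.03 with strength-dependent offsets. It was called under TMM scaling only (edgeR adjusted p = 0.0134, 0.194 and 0.786 in that order). All 5 regions of largest loss lay outside the gene models. Actin, Eef1a1 and Rpl3 genes have processed copies, but whether reads in these flanking regions are shared with other places was not tested, so the values are uncertain.

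The 5 largest gains among the same regions all lay over 1 kb from a gene end. A region inside Filip1l (chromosome 16, 57391231 to 57391663) had 6.87, 7.37 and 7.23 CPM with aphidicolin, against 4.87, 3.63 and 5.22 untreated, a log2 fold change of 0.65 ± 0.12 (SE; edgeR adjusted p = 7.15e-04). One inside Tmem45a, also on chromosome 16 (56808756 to 56809252), changed by 0.68, and others at Rmdn2, Gipc2 and Rasal2 by 0.57, 0.56 and 0.55. They were called in the same direction under library totals and strength-dependent offsets. At Cdkn1a, the p53 target p21, a region with no 12h peak (chromosome 17, 29100507 to 29101239) had 5.68, 4.74 and 5.14 CPM with aphidicolin, against 2.57, 2.76 and 3.85 untreated (0.76 ± 0.14, SE; edgeR adjusted p = 7.20e-04). It was higher under every scaling run (0.72 to 0.92). Of the regions with no 12h peak, 75.1% entered the table through the aphidicolin lists alone, which favours a gain. Whether the Cdkn1a region is one of them is not given here.

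Among nascent gene-end regions, lists can be read against the 67.3% lower of all 9551. Lower were 17 of 18 ubiquitous, 20 of 23 S phase, 14 of 16 mitosis, 15 of 18 AP-1 and immediate early, 18 of 24 fibroblast and matrix, 13 of 24 ribosomal protein, 8 of 18 Hox and 5 of 15 mesenchymal factor regions. Of all 9551, 13 were higher. With strength-dependent offsets 529 of the 9551 were higher and 793 lower, 3 and 1 of the S phase regions, 2 and 2 of the AP-1 and immediate early regions and 1 and 5 of the ribosomal ones, so the list counts depend on the scaling. Thy1, a fibroblast surface marker, had 10.1, 10.3 and 10.0 CPM with aphidicolin, against 15.4, 16.0 and 16.9 untreated at one nascent region (chromosome 9, 44048671 to 44049085, -0.67, edgeR adjusted p = 6.45e-05). Its other nascent gene-end region (44049237 to 44049683) was not called (-0.22, edgeR adjusted p = 0.0865). The mature-class region over its opposite end (44043148 to 44043700) changed by -0.55 (edgeR adjusted p = 6.19e-04). Twist1 had 56.0, 50.0 and 51.9 with aphidicolin, against 62.0, 53.7 and 47.6 untreated, groups that overlap (-0.05 ± 0.09, SE; edgeR adjusted p = 0.700), and was higher with strength-dependent offsets (0.37, edgeR adjusted p = 4.66e-04). Fosl2, an AP-1 subunit, fell to 73.8, 66.6 and 70.0 CPM with aphidicolin, against 121, 113 and 98.2 untreated (-0.66), and was lower under library totals (-0.50) and strength-dependent offsets (-0.15). Jun fell by 0.29 but was higher with those offsets (0.23, edgeR adjusted p = 0.0125), so its direction depends on the scaling. At the reprogramming factor genes, where cassette reads cannot be told apart, the nascent region in Sox2 (chromosome 3, 34650423 to 34651360) had 41.0, 39.3 and 38.4 CPM with aphidicolin, against 69.0, 69.9 and 63.6 untreated (-0.77; -0.36 with strength-dependent offsets). The bulk-only region at the Sox2 start, with 6.20, 4.91 and 5.06 with aphidicolin, against 7.30, 5.48 and 4.42 untreated, overlapped between groups (-0.10, edgeR adjusted p = 0.618). The region at the upstream end of Pou5f1, of the mature class, had 21.5, 18.9 and 17.7 with aphidicolin, against 32.3, 31.2 and 31.0 untreated (-0.70).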

How the data were processed

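Open chromatin of MEF at 12h was measured by repli-ATAC-seq in nascent, mature and bulk fractions. Per the submitters' processing notes, the build was mm10 and the tools were MACS2 2.2.0, Bowtie2 2.2.5 and SAMtools 1.4.1, with bedtools 2.26.0, bcl2fastq 2.19.1 and cutadapt 2.2.0, with no role or parameters stated. The authors deposited peak lists that carry the caller's score for each peak, and the peak names show that the 12h, 6h and 36h lists were called on merged replicates. The deposited 12h bulk list was matched to its samples by its name, being the bulk list not ascribed to the mature arm. For the aphidicolin experiment, counts of reads came as deposited by the authors, unnormalized, for 139000 regions with a peak in all 3 aphidicolin or all 3 untreated lists. The counting tool is not stated, and the replicate numbers in the column names tie to no single sample.

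Overlaps (at least 1 bp) and distances to either end of protein-coding gene models (RefSeq, GRCm38.p6, 21887 genes) were computed with Python 3.11.15, numpy 2.4.6, pandas 2.3.3, scipy 1.17.1 and bedtools 2.31.1, and shares carry Wilson 95% intervals. Shares in other lists were compared at matched bulk score in 100 percentile bins. Promoters and their sequences came from RefSeq. Counts were tested with edgeR 4.0.16 (quasi-likelihood, TMM, low regions removed by edgeR's own filter) in R 4.3.3, with limma 3.58.1 for strength-dependent offsets. DESeq2 1.42.0 was run as an alternative, and the edgeR test was checked on simulated data. Same-numbered aphidicolin and untreated libraries did not deviate together. Figures were drawn with matplotlib 3.10.9. Named genes were the set genes, the highest-scoring genes of each of 18 lists (318 genes, all in the gene table), the strongest peaks of each class, the loci with most peaks and the largest aphidicolin changes; other list members are named as examples chosen after their values were seen. The members, lists and tests were chosen with earlier results of these data known.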

Additional observations from a re-analysis of the deposited data

How the results depend on the processing

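The share of bulk peaks with a nascent or mature peak (10.3% and 32.1%) followed list length and threshold. With an overlap of at least 0.5 of the smaller peak the mature share was 31.3%. With scores of 100 or more the nascent and mature shares were 7.28% and 26.6%, with the mature-arm bulk list 11.2% and 34.5%, on autosomes over 1 kb from gene ends 6.17% and 28.3%, and with every list cut to the nascent length 65.1% and 73.0%. The gene-end shares of nascent, mature and bulk peaks were 41.5%, 18.3% and 8.01% within 500 bp and 56.1%, 32.3% and 21.5% within 5 kb. They were 54.2%, 24.3% and 10.5% with scores of 100 or more, and 41.3%, 17.5% and 7.56% around annotated starts. With lists of equal length, mature had 37.8% and bulk 36.8%, and the mature-arm bulk list had 10.6%. Gene counts stayed within 1.5 times under each alternative run.

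The 36h and 6h differences between mature-only and score-matched peaks (16.3 and 1.07 points) were 6.38 and -0.910 with mature-arm lists, 15.4 and 0.594 with the larger overlap, 11.2 and 0.345 with scores of 100 or more, and 15.1 and 0.0290 for peaks in both 12h bulk lists. The 6h list cut to the 36h length gave -0.574, and peaks over 1 kb from gene ends gave 16.5 at 36h. Annotated starts, equal lengths for these lists, distal peaks and peaks in both 12h lists were alternatives chosen after seeing the data.

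For aphidicolin, library totals gave 706 higher and 6346 lower nascent regions (median -0.13), 10622 and 2705 mature (0.12, reversed from -0.04), 26691 and 1724 bulk-only (0.32), and 326 lower with no 12h peak (0.50). Strength-dependent offsets gave 1039 and 2528 nascent (-0.04), 5063 lower mature, 8971 higher bulk-only (0.02), and 1279 and 1000 with no 12h peak (0.07). Regions with a peak in all 6 lists gave 282 higher nascent, 4558 lower mature (0.02, also reversed), 10144 and 2333 bulk-only, and 268 and 200 with no 12h peak (0.02), from fewer regions. The cause of the other changes was not tested. DESeq2, the larger overlap and no filter on low counts moved no class count by over 1.5 times.

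With 1 library left out, nascent regions numbered 60 to 393 higher and 7863 to 13771 lower (medians -0.32 to -0.25). Mature regions numbered 2552 to 7054 higher and 4432 to 8343 lower (-0.04 to -0.02), bulk-only 10459 to 19071 higher and 2523 to 5309 lower (0.15 to 0.17), and those with no 12h peak 2194 to 3407 higher and 367 to 589 lower (0.31 to 0.38). Class shares of counts differed by -6.31 to -4.86, 1.17 to 2.11, 3.37 to 3.85 and 0.316 to 0.374 points. The same numbers in the column names did not pair libraries (correlations of 0.26, 0.01 and 0.15), and a replicate block gave 284 higher nascent regions and moved no other class count by over 1.5 times. Of 140 alternatives for single genes and regions 130 left the result in place.

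With 1 merged list per fraction, nothing measures the spread between replicates, and the read depth behind each list is unknown. A site missing from the short nascent list was not detected there and is not shown to be closed.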
